A study of Mus musculus with 12 samples.

Results

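To describe how the transcriptome of endomucin-purified bone cells of female mice differed with age, the 3 female libraries of 65-week-old mice were compared with the 3 female libraries of 2-week-old mice. The comparison held every gene that passed a filter on low counts, which was 15120 of the 37620 genes in the count table, in 6 of the 12 libraries of the series. All mice were of the C57/Bl6 strain, and the labels name no other allele and no treatment. Bone endothelial cells (BECs) were freshly isolated from tibia and sorted by endomucin, a sialomucin of capillary and venous endothelium. The labels do not say whether the 3 libraries of an age came from separate mice, so that p-values measure the spread between these libraries, which may be technical. CPM values are counts scaled to 1 common library total, and log2 fold changes are 65 over 2 weeks after TMM scaling. A gene is called higher or lower where the adjusted p of edgeR's quasi-likelihood test was under 0.05.

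Long bones of mice at 2 weeks are still elongating at the growth plate, and their capillaries grow together with osteoblast progenitors that lay down matrix. By 65 weeks elongation has ended, and the marrow is a home of long-lived antibody-producing cells. Growth-related genes, among them several imprinted genes, are known to be switched down in many tissues after the juvenile period, whereas genes of immune surveillance are often higher in aged tissues.

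Total counts per library were 35012947 to 38289171 at 2 weeks and 29049031 to 34088694 at 65 weeks. The share of counts from the mitochondrial genome was 6.22 to 6.55% at 2 weeks and 3.22 to 3.79% at 65 weeks. Y-linked genes had 25 counts in replicate 3 of 2 weeks and 0 or 1 in each other female library, and the source of these counts was not tested. The cell label was checked against markers. VE-cadherin, Cdh5, the junction protein that defines endothelium, was at 590.4, 749 and 431 CPM at 2 weeks and 8.92, 13.0 and 13.5 CPM at 65 weeks (log2 fold change -5.50 ± 0.25, edgeR adjusted p = 2.57e-06). Emcn, the gene of the protein used for purification, was at 146, 181 and 115 CPM at 2 weeks and 5.23, 6.98 and 2.80 CPM at 65 weeks (log2 fold change -4.73 ± 0.32, edgeR adjusted p = 1.10e-05). Kdr, the main VEGF receptor, had a log2 fold change of -5.08 ± 0.24, and Pecam1, which leukocytes and platelets also make, of -1.77 ± 0.19. All 19 endothelial markers listed were lower at 65 weeks, and their summed level fell from 3905 to 6747 CPM at 2 weeks to 303 to 389 CPM at 65 weeks. Summed B cell markers rose from 624 to 715 CPM to 7138 to 18772 CPM, and neutrophil markers from 4895 to 6119 CPM to 11638 to 15469 CPM. Most of the B cell rise was Ighm, the IgM heavy chain. Of 8 B cell markers tested, 6 were higher and 1 lower, with a median log2 fold change of 1.79. Osteoblast markers, at 4377 to 6414 CPM at 2 weeks, summed to 106 to 178 CPM at 65 weeks, chondrocyte markers fell from 306 to 381 CPM to 4.96 to 10.2 CPM, and adipocyte and stromal markers from 6334 to 9937 CPM to 1224 to 1586 CPM. The libraries labelled as 65-week BECs therefore carried few endothelial transcripts, and in bulk RNA fewer cells of a type and less RNA per cell cannot be told apart. The part of these markers in the results that follow was not tested. Some markers, among them Col1a1, Col10a1, Cxcl12, Fabp4, Lpl, Ppbp, Ctsk, Ighm and Jchain, are also members of the gene lists below. For these lists part of the parallel change with marker sums is given by construction. Summed levels at 2 weeks were 15.5-fold those at 65 weeks for endothelial, 34.7-fold for osteoblast, 48.8-fold for chondrocyte and 5.52-fold for adipocyte and stromal markers.

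Of the 15120 genes tested, 9030 were called (59.7%), of which 4568 were higher at 65 weeks (30.2% of those tested) and 4462 lower (29.5%). The falls were larger than the rises. At least 4-fold differences were found for 691 genes that rose and 1719 that fell, and at least 32-fold differences for 105 and 296. The median log2 fold change of all genes tested was 0.0056, and among the genes called, 8534 had no overlap between the libraries of the 2 ages, as did 10461 of all 15120 genes tested. Higher genes were 50.6% of those called after TMM scaling and 40.2% when libraries were scaled by their totals alone, which moved the median of all genes by -0.14. The plot of fold change against abundance shows this lopsided spread.

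**Figure D1:**
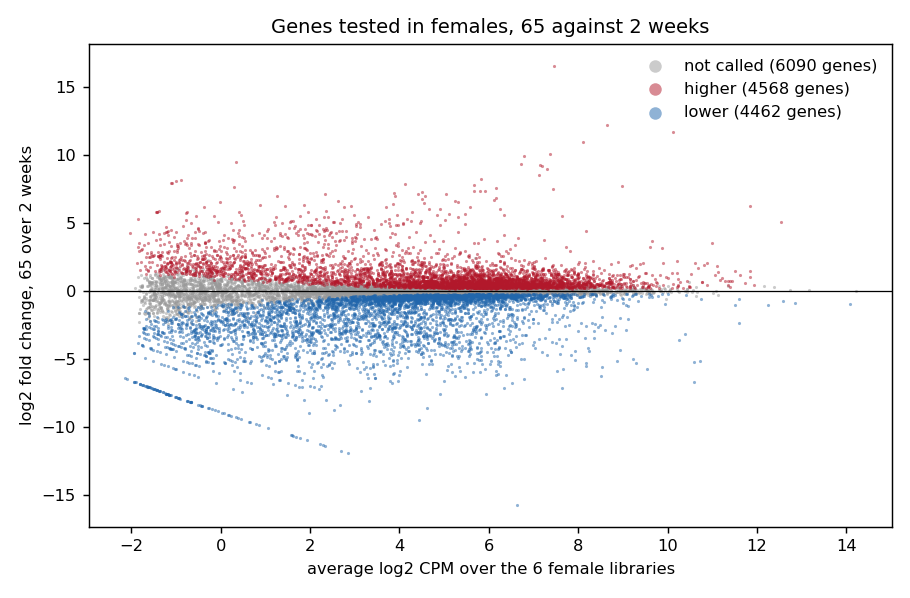
Log2 fold change of 65 over 2 weeks (y axis) against average log2 CPM (x axis) for each of the 15120 genes tested in females, with the 4568 genes called higher in red, the 4462 called lower in blue and the others in grey. The blue points reach further from 0 than the red ones, and the straight line of blue points at the lower left are genes with no count at 65 weeks, whose fitted value has no fixed size.

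Among abundant protein-coding genes, the 12 largest rises included genes of antibody secretion and antigen presentation. Jchain, which joins IgA and IgM into polymers, was at 4.47, 4.08 and 6.40 CPM at 2 weeks and 991, 1003 and 879 CPM at 65 weeks (log2 fold change 7.71 ± 0.22, edgeR adjusted p = 7.47e-07). Apol11a and Apol11b, apolipoprotein L genes, had log2 fold changes of 7.14 ± 0.25 and 4.45 ± 0.25. The Fc receptor gene Fcgr4, which binds IgG on myeloid cells, had a log2 fold change of 3.78 ± 0.25, and Cd300e, a receptor of monocytes, one of 5.69 ± 0.29. Cd74, H2-Eb1, H2-DMb2 and their transactivator Ciita, the class II genes among the 12 largest rises, had log2 fold changes of 3.53, 3.67, 3.53 and 3.52. The absence of overlap between ages was a condition of their choice.

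The 12 largest falls included matrix and vessel genes. Aplnr, the apelin receptor of sprouting endothelium, was at 418, 519 and 302 CPM at 2 weeks and 2.99, 2.14 and 3.07 CPM at 65 weeks (log2 fold change -7.10 ± 0.25, edgeR adjusted p = 1.50e-06). Clec14a and Pcdh12, both endothelial surface proteins, fell, with log2 fold changes of -6.15 and -6.25. Npnt, the integrin ligand nephronectin, fell by 7.11, Pxdn, a peroxidase that crosslinks collagen IV, fell by 6.72, and the matricellular gene Sparcl1 fell by 6.60 on the same scale. No count was found in any 65-week library for 34 genes that had at least 1 CPM in each 2-week library. These included the mechanosensitive channel Piezo2, at 14.8, 18.5 and 11.1 CPM at 2 weeks, the phosphate hormone Fgf23, at 1.77, 3.28 and 2.69 CPM, and Cthrc1, a secreted matrix protein, at 7.90, 12.4 and 8.20 CPM. The reverse held for 1 gene, Ighg1.

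**Figure D2:**
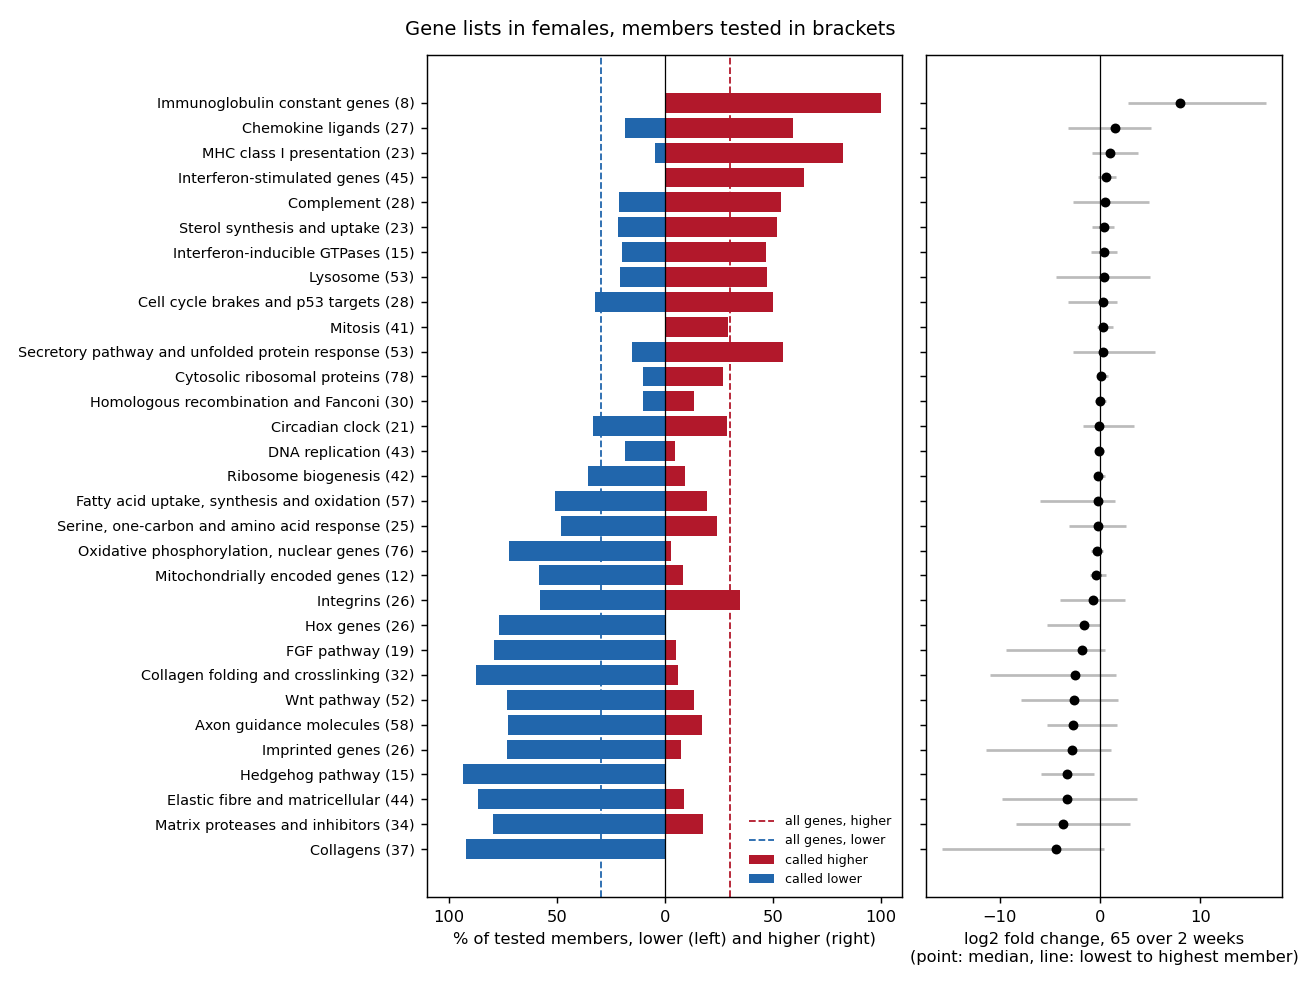
Left, the share of tested members of each gene list called higher (red, to the right) or lower (blue, to the left) at 65 weeks, with dashed lines at the shares of all genes tested (30.2% higher, 29.5% lower). Right, the median (point) and the lowest to highest member (line) of the log2 fold change, 65 over 2 weeks. Collagens, hedgehog genes and matrix genes lie at the bottom, and immunoglobulin constant genes at the top.

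Genes of the extracellular matrix fell together. Of 37 collagen genes tested, 34 were lower and 0 higher at 65 weeks, with a median log2 fold change of -4.43. All 11 fibrillar and all 5 basement membrane chains that passed the filter were lower. Col1a1, a chain of type I collagen, the main collagen of bone, was at 2628, 3951 and 3053 CPM at 2 weeks and 23.1, 23.3 and 37.4 CPM at 65 weeks (log2 fold change -6.71 ± 0.26, edgeR adjusted p = 1.79e-06). For Col1a1 the spread within each age was small beside the gap between the ages, whose lack of overlap was a condition of its choice. Col4a1, the chain that builds the vessel basement membrane, was at 1282, 1587 and 960.2 CPM at 2 weeks and 22.8, 35.4 and 31.9 CPM at 65 weeks (log2 fold change -5.27 ± 0.24, edgeR adjusted p = 2.58e-06). Col10a1, made by hypertrophic chondrocytes, was at 206, 214 and 198 CPM at 2 weeks and had no count in any 65-week library, which made it at least 2105-fold lower against a floor of 3 counts per library. Col12a1 and Col11a1 fell, with log2 fold changes of -6.45 and -6.27. The 3 chains not called were Col14a1, Col19a1 and Col20a1. Endothelial, osteoblast, chondrocyte and stromal markers fell in the same libraries, and Col1a1 and Col10a1 are themselves among the osteoblast and chondrocyte markers.

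Genes of the proteins that fold, secrete and crosslink collagen were mostly lower too. Of 32 such genes, 28 were lower and 2 higher, with a median of -2.52. Fkbp10, a collagen prolyl isomerase, was at 149, 199 and 122 CPM at 2 weeks and 3.17, 4.63 and 1.43 CPM at 65 weeks (log2 fold change -5.51 ± 0.38, edgeR adjusted p = 1.19e-05). Serpinh1, the collagen chaperone, had a log2 fold change of -4.15 ± 0.19, whereas Ppib and P4hb, which also serve other secreted proteins, had values of -0.84 ± 0.080 and -0.99 ± 0.094. Lox, the lysyl oxidase that starts crosslinking, was at 177, 214 and 153 CPM at 2 weeks and 9.40, 18.012 and 14.6 CPM at 65 weeks (log2 fold change -3.55 ± 0.24, edgeR adjusted p = 1.09e-05). Loxl2 fell by 4.75 and Sparc, a collagen-binding glycoprotein, fell by 5.16 on the log2 scale. Tmem38b, an ion channel of the endoplasmic reticulum, and P4ha1, a prolyl hydroxylase subunit, were the 2 that rose, by log2 fold changes of 1.56 ± 0.19 and 0.44 ± 0.098.

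Non-collagenous matrix followed. In the list of elastic fibre genes 15 of 18 were lower and 2 higher, in that of matricellular proteins 14 of 17 were lower and 2 higher, and all 9 small proteoglycans tested were lower. Eln, tropoelastin, fell by 6.08 and Ccn2, a growth factor-binding matrix protein, fell by 6.07 on the log2 scale. The keratan sulphate proteoglycan Fmod had a log2 fold change of -8.55 ± 0.55. That size rests on few counts, since Fmod was at 0.379, 0 and 0 CPM at 65 weeks. Hspg2, perlecan of basement membranes, was at 748, 1057 and 485 CPM at 2 weeks and 8.88, 9.42 and 9.35 CPM at 65 weeks (log2 fold change -6.23 ± 0.29, edgeR adjusted p = 2.59e-06). Fn1, fibronectin, was at 807, 769 and 584 CPM at 2 weeks and 82.7, 119 and 62.8 CPM at 65 weeks (log2 fold change -2.89 ± 0.24, edgeR adjusted p = 2.96e-05), and its libraries did not overlap. Efemp1, Vtn, Emilin2 and Tgfbi rose against the trend, with log2 fold changes of 3.68, 2.97, 1.20 and 0.40. Vtn encodes vitronectin of plasma, and Tgfbi is also made by monocytes and macrophages.

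Matrix-degrading enzymes were mostly lower. Of 34 proteases and inhibitors tested, 27 were lower (79.4%) and 6 higher (17.6%, under the 30.2% of all genes). Mmp13, the collagenase of the growth plate, was at 673, 908 and 699.9 CPM at 2 weeks and 6.92, 15.9 and 20.1 CPM at 65 weeks (log2 fold change -5.59 ± 0.38, edgeR adjusted p = 1.21e-05). Mmp2, gelatinase A, fell by 5.90 and Adamts12 fell by 6.61 on the log2 scale. The proteases that rose included those of leukocytes: Mmp8, the neutrophil collagenase, with a log2 fold change of 1.32 ± 0.16, Mmp12, the macrophage elastase, with 2.95 ± 0.34, and Mmp25 of neutrophils with 0.86 ± 0.090. Of 26 integrin genes, 15 were lower (57.7%, against 29.5% of all genes) and 9 higher (34.6%, close to the 30.2% of all genes). Those that fell included receptors of collagen, laminin and fibronectin (Itga1 -4.01, Itga8 -3.60, Itga2 -3.49, Itga5 -2.52), and those that rose included leukocyte integrins (Itgal 2.25, Itgax 2.52, Itgam 1.41, Itgb2 1.83, Itgb7 1.38). Neutrophil, monocyte and B cell markers rose in the same libraries as the leukocyte members.

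Imprinted genes, which are expressed from 1 parental copy and many of which control fetal and early growth, were mostly lower at 65 weeks. Of 40 listed, 34 matched an ID and 26 passed the filter, of which 19 were lower and 2 higher, with a median log2 fold change of -2.81. The 12 paternally expressed genes that fell included Mest, at 129, 169 and 87.3 CPM at 2 weeks and 0.482, 0.528 and 0.887 CPM at 65 weeks (log2 fold change -7.53 ± 0.32, edgeR adjusted p = 1.95e-06), Peg3, a zinc finger gene, with a log2 fold change of -5.93 ± 0.31, and Igf2. Igf2, the fetal growth factor, was at 68.4, 97.0 and 54.0 CPM at 2 weeks and 1.48, 1.32 and 2.01 CPM at 65 weeks (log2 fold change -5.37 ± 0.26, edgeR adjusted p = 2.86e-06). H19, the maternally expressed non-coding RNA beside Igf2, was at 21.0, 25.7 and 17.5 CPM at 2 weeks and 0.310, 0.499 and 0.478 CPM at 65 weeks (log2 fold change -5.48 ± 0.23, edgeR adjusted p = 1.95e-06). None of these libraries overlapped between ages, which for Mest, Peg3 and H19 was a condition of their choice. The amino acid transporter Slc38a4 and Nnat, at 8.93, 12.2 and 8.46 CPM and 2.72, 3.77 and 2.43 CPM at 2 weeks, had no count at 65 weeks. Impact and Inpp5f rose, with log2 fold changes of 0.84 ± 0.11 and 1.10 ± 0.11, and the maternally expressed Igf2r and Gnas, at -0.08 and -0.17, were not called. Igf2bp3, the fetal RNA-binding protein that binds Igf2 messenger RNA, was at 21.8, 20.4 and 20.2 CPM at 2 weeks and 0.241, 0 and 0.171 CPM at 65 weeks (log2 fold change -7.14 ± 0.42, edgeR adjusted p = 5.95e-06). Stromal and osteoblast markers fell in the same libraries.

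**Figure D3:**
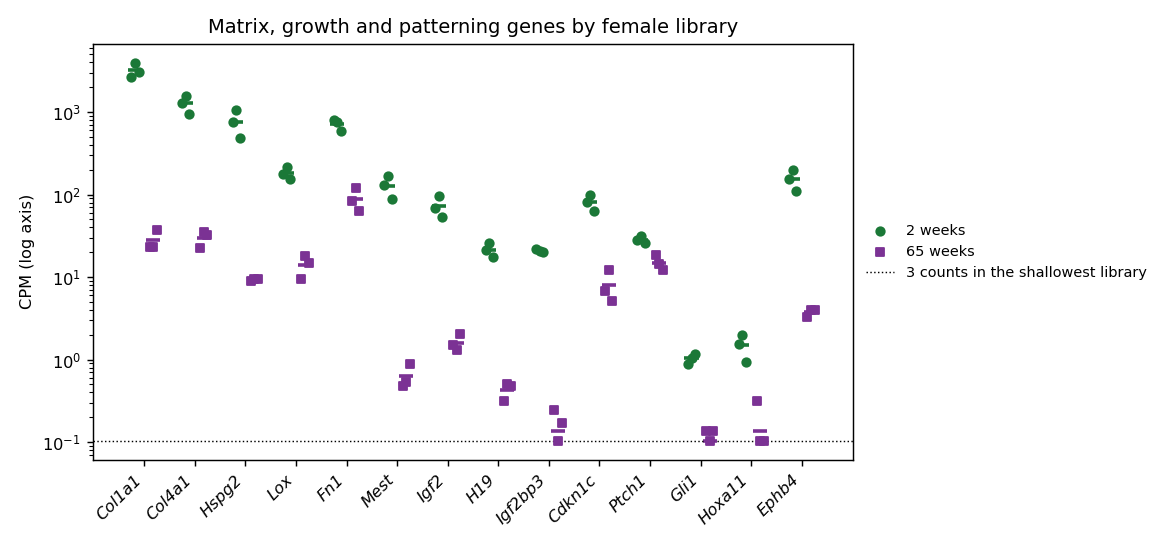
CPM (log axis) of matrix, growth and patterning genes in the 3 libraries of 2 weeks (green circles) and the 3 of 65 weeks (purple squares) of females, with horizontal bars at the group means. Values under 3 counts in the shallowest library (dotted line) are drawn on that line. For each of the 14 genes the symbols of the 2 ages do not overlap, which for some of them was a condition of their choice.

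Hedgehog signalling starts when a ligand relieves the block that Ptch1 puts on Smo, and Gli factors then act in the nucleus. Of 15 hedgehog genes tested, 14 were lower and 0 higher, with a median of -3.29. Ptch1, both receptor and target, was at 27.8, 31.8 and 25.7 CPM at 2 weeks and 18.4, 14.3 and 12.1 CPM at 65 weeks (log2 fold change -0.79 ± 0.16, edgeR adjusted p = 0.00280), the second smallest fall of those called. Smo fell by 2.46 and the co-receptor Gas1 fell by 5.89 on the log2 scale. Gli1, the transcriptional readout of the pathway, was low at both ages, at 0.871, 1.06 and 1.18 CPM at 2 weeks and 0.138, 0 and 0.136 CPM at 65 weeks (log2 fold change -3.38 ± 0.67, edgeR adjusted p = 0.00291). Shh and Ihh, the ligands of limb and growth plate, did not pass the filter. Osteoblast markers (34.7-fold lower), chondrocyte markers (48.8-fold) and stromal markers (5.52-fold) fell in the same libraries.

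In the FGF pathway, 15 of 19 genes tested were lower and 1 higher. The receptors Fgfr1, Fgfr2 and Fgfr3 had log2 fold changes of -3.26 ± 0.16, -4.41 ± 0.25 and -3.37 ± 0.31. Feedback inhibitors and other targets of the pathway were lower in 7 of 9 cases. Spry4 fell by 2.88 and Spry1 fell by 2.42 on the log2 scale. The Wnt pathway, which controls osteoblast differentiation, had 38 of 52 genes lower and 7 higher, with a median of -2.58. These shares were 73.1% and 13.5%, against 29.5% and 30.2% of all genes. The agonist Rspo3 was at 29.5, 36.2 and 23.1 CPM at 2 weeks and 0.0344, 0.675 and 0.444 CPM at 65 weeks (log2 fold change -6.07 ± 0.45, edgeR adjusted p = 1.80e-05), the secreted inhibitor Wif1 had a log2 fold change of -5.84 ± 0.30 and the endothelial receptor Fzd4 of -4.05 ± 0.34. Ligands (9 of 12 lower), receptors (14 of 17) and inhibitors (10 of 12) were mostly lower. Axin2, the common target of the pathway, was at 1.42, 2.14 and 1.75 CPM at 2 weeks and 1.34, 0.763 and 0.717 CPM at 65 weeks and, although the groups did not overlap, was not called (log2 fold change -0.78 ± 0.35, edgeR adjusted p = 0.0852). Without replicate 1 of 65 weeks the log2 fold change of Axin2 was -1.11, with an edgeR adjusted p of 0.0247. Beside these FGF and Wnt genes, osteoblast markers were 34.7-fold, endothelial markers 15.5-fold and stromal markers 5.52-fold lower.

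Axon guidance molecules also steer vessel sprouts and leukocytes. Of 58 tested, 42 were lower and 10 higher (72.4% and 17.2%, against 29.5% and 30.2% of all genes), with a median of -2.71. Ephb4, the Eph receptor of veins, was at 156, 199 and 111 CPM at 2 weeks and 3.24, 3.93 and 4.03 CPM at 65 weeks (log2 fold change -5.24 ± 0.23, edgeR adjusted p = 1.99e-06). Its ligand Efnb2, a marker of arteries, fell by 4.33, the netrin receptor Unc5b fell by 4.86 and the guidance cue Slit2 fell by 4.44 on the log2 scale. Among class 3 semaphorins Sema3a, Sema3f and Sema3g fell, with log2 fold changes of -4.10, -3.95 and -3.09, and Sema3e rose (1.73 ± 0.48). Sema4d and Sema4a, which act on lymphocytes, rose, with values of 1.25 ± 0.100 and 0.72 ± 0.18, as did Plxnc1, a plexin of leukocytes, with 1.35 ± 0.083. Without replicate 1 of 2 weeks 5 members were higher, and without replicate 3 of 2 weeks 6. Endothelial and stromal markers fell, and T cell and neutrophil markers rose, in the same libraries.

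Hox genes keep a record of position along the body and limb. Of 26 that passed the filter, 20 were lower and 0 higher, with a median of -1.63 and summed levels of 67.6 to 99.0 CPM at 2 weeks and 21.3 to 25.9 CPM at 65 weeks. Hoxa11, a gene of the limb's middle segment, was at 1.55, 2.00 and 0.940 CPM at 2 weeks and 0.310, 0.0587 and 0.0341 CPM at 65 weeks (log2 fold change -3.34 ± 0.67, edgeR adjusted p = 0.00321). Hoxc9 and Hoxc10 fell, with log2 fold changes of -3.37 and -3.06, whereas Hoxa9, which blood progenitors express, fell by 0.77 and Hoxb4, also of blood progenitors, was not called, at -0.01 ± 0.30. The 12 matched genes that did not pass the filter included 6 of the D cluster, so that the list describes the A, B and C clusters for the most part. Stromal, osteoblast and chondrocyte markers fell in the same libraries.

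In contrast to the growth pathways, genes of cell division differed little between the ages. Of 43 DNA replication genes, 2 were higher and 8 lower (4.65% and 18.6%, under the shares of all genes), and none differed by 2-fold. Pcna, the sliding clamp of the replication fork, was at 561, 493 and 669 CPM at 2 weeks and 589.6, 553 and 583 CPM at 65 weeks, with overlapping groups (log2 fold change 0.13 ± 0.12, edgeR adjusted p = 0.386). Pola2, of the polymerase that primes replication, had a log2 fold change of -0.46 ± 0.11 (edgeR adjusted p = 0.00715), Orc6 of the origin complex one of -0.42 ± 0.13 and Uhrf1, which keeps DNA methylation, one of -0.40 ± 0.15. The count of lower genes moved with the setting, from 1 with all 12 libraries in the model to 24 without replicate 2 of 2 weeks, the call of Orc6 was lost without replicate 2 or replicate 3 of 65 weeks, and that of Uhrf1 without replicate 1 of 2 weeks or any replicate of 65 weeks. Homologous recombination and Fanconi genes had 4 of 30 higher (Brca1 0.57, Brca2 0.54, Bard1 0.49, Fancm 0.59) and 3 lower (Fancc -0.50, Atr -0.46, Xrcc3 -0.45). These shares, 13.3% higher and 10% lower, were under the 30.2% and 29.5% of all genes. Summed B cell markers were 18.02-fold higher, mostly through Ighm, and erythroid markers 0.979 times their 2-week level beside the genes of replication and mitosis.

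Of 41 mitosis genes, 12 were higher and 0 lower, with a median log2 fold change of 0.27. A share of 29.3% called higher was close to that of all genes. Cenpf, a kinetochore protein, was at 103, 85.8 and 149 CPM at 2 weeks and 251, 264 and 244 CPM at 65 weeks (log2 fold change 1.29 ± 0.20, edgeR adjusted p = 7.34e-04). Cenpe, a kinetochore motor, and Smc4, of the condensin ring, had log2 fold changes of 0.98 ± 0.20 and 0.96 ± 0.18. Mki67, a coat protein of mitotic chromosomes that marks cycling cells, was at 1027, 752 and 1638 CPM at 2 weeks and 1804, 1552 and 1629.6 CPM at 65 weeks. The 2-week libraries were far apart and overlapped those of 65 weeks, and the gene was not called (log2 fold change 0.67 ± 0.26, edgeR adjusted p = 0.0531). Cdk1, the mitotic kinase, was at 250.02, 196 and 287 CPM at 2 weeks and 191, 189 and 179 CPM at 65 weeks and was not called either (log2 fold change -0.26 ± 0.14, edgeR adjusted p = 0.154), although its groups did not overlap. Without replicate 2 of 2 weeks Cdk1 was called lower, by -0.45 with an edgeR adjusted p of 0.00369, and under library totals by -0.39 with an edgeR adjusted p of 0.0315. Replicate 3 of 2 weeks was the highest library of that age for Mki67, and without it the log2 fold change was 0.97 with an edgeR adjusted p of 0.00109, and 25 mitosis genes were higher. Mki67 was also called by DESeq2 (adjusted p = 0.0134) and by edgeR with RLE size factors (adjusted p = 0.0494). The genes of spindle and chromosomes were higher in 11 of 27 cases and the kinases and cyclins in 1 of 14.

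The promoters of mitosis genes are known to carry cell cycle homology regions (CHR), and those of replication genes E2F sites. The RefSeq promoter table of GRCm38.p6, which runs from 250 bases before to 50 after a start, held 34 of the 41 mitosis genes. A CHR, TTTGAA or TTCGAA on either strand, was found in 27 of the 34 (79.4%) and in 21.7% of all 27025 genes in the table. The CCAAT box, CCAAT on either strand, which may share an end base with a CHR, was found in 26 of the 34 (76.5%) and in 41.1% of all genes. An E2F motif, TTTCCCGC or TTTGGCGC on either strand, was found in 12 of 34 replication genes (35.3%) and in 1.80% of all genes. It was held by 1 of the 7 replication genes with a promoter that were called. Among the mitosis genes called, 10 of the 11 with a promoter held a CHR, and Cenpe, which rose, held none. The promoter of Cenpf, the mitosis gene with the largest rise, is given with its CHR match, at position 2 relative to the start, in capitals (chr1:189688037-189688336, minus strand).
Cenpf promoter: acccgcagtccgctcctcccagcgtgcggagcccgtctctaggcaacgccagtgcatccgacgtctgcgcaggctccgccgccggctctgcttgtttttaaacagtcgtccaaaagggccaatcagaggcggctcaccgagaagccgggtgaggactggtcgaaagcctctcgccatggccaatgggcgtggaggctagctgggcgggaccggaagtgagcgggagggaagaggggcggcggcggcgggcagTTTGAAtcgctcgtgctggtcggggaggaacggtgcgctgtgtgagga

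Brakes on the cell cycle and p53 targets changed in both directions, with 14 of 28 higher (50%, against 30.2% of all genes) and 9 lower (32.1%, close to the 29.5% of all genes). Cdkn1c, the imprinted p57 inhibitor, was at 81.3, 99.0 and 63.5 CPM at 2 weeks and 6.78, 12.1 and 5.15 CPM at 65 weeks (log2 fold change -3.19 ± 0.31, edgeR adjusted p = 6.06e-05). Cdkn1a, the p21 inhibitor that p53 induces, was at 33.4, 36.0 and 29.9 CPM at 2 weeks and 11.5, 12.7 and 12.4 CPM at 65 weeks (log2 fold change -1.31 ± 0.099, edgeR adjusted p = 1.88e-05). The p53 targets Phlda3 and Plk2 fell, with log2 fold changes of -2.64 and -2.57, whereas the p53 target Pmaip1, an activator of apoptosis, rose (1.72 ± 0.11). Cdkn1b, the p27 inhibitor of resting cells, rose with a log2 fold change of 1.32 ± 0.14. Cdkn2a, which accumulates in senescent cells, was at 0.572, 0.857 and 0.679 CPM at 2 weeks and 2.69, 1.76 and 1.19 CPM at 65 weeks (log2 fold change 1.55 ± 0.38, edgeR adjusted p = 0.00812), with at most 30 counts in a library at 2 weeks and 78 at 65 weeks. Without replicate 1 of 2 weeks its edgeR adjusted p was 0.0531. Stromal and endothelial markers fell, and B cell and neutrophil markers rose, in the same libraries.

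**Figure D4:**
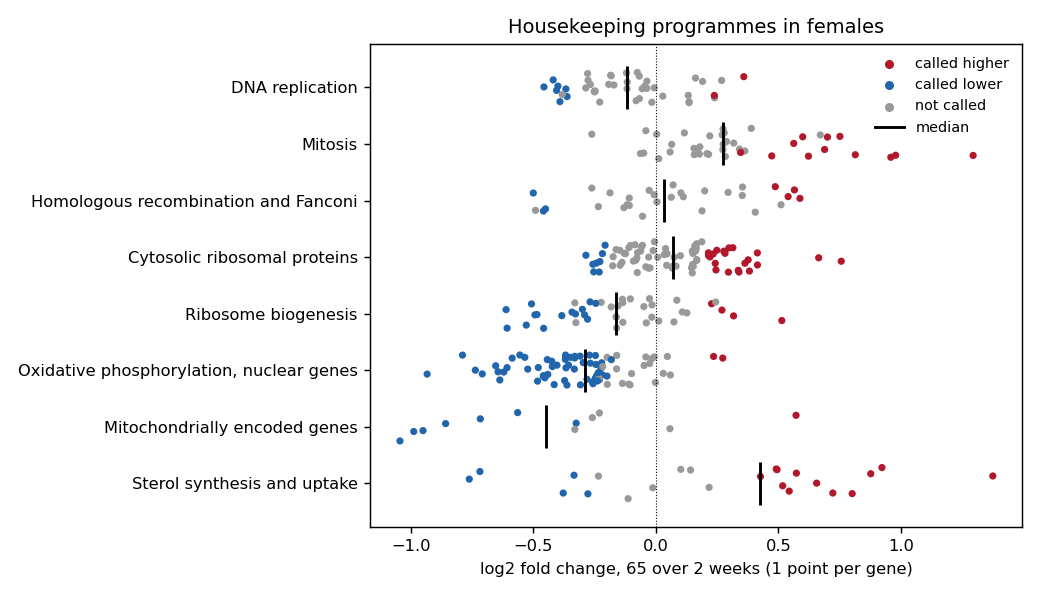
Log2 fold change, 65 over 2 weeks (x axis), of each tested member of 8 lists (1 point per gene), called higher in red, called lower in blue and not called in grey, with a black line at the list median. Oxidative phosphorylation genes lie mostly to the left of 0 and sterol genes mostly to the right, and most points of both lie within 1 log2 unit of 0.

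Genes of the ribosome changed little. Of 78 cytosolic ribosomal protein genes, 21 were higher and 8 lower (26.9% and 10.3%, against 30.2% and 29.5% of all genes). The split turned to 8 higher and 26 lower when libraries were scaled by their totals alone. Without replicate 3 of 2 weeks it was 9 higher and 15 lower, without replicate 1 of 2 weeks 7 higher and 5 lower, and without replicate 2 or replicate 3 of 65 weeks 1 gene was lower. None differed by 2-fold. Rps14, of the small subunit, had a log2 fold change of 0.66 ± 0.072 and Rps28 of 0.41 ± 0.073, and reads shared with their many pseudogene copies make such small differences uncertain. Of 42 genes of ribosome biogenesis, 15 were lower (35.7%, close to the 29.5% of all genes) and 4 higher (9.52%, against 30.2%), with a median of -0.16. Ddx56, a nucleolar helicase, fell by 0.61, Wdr75 fell by 0.61 and the acetyltransferase Nat10 fell by 0.53 on the log2 scale. Myc, which drives this programme, was at 43.0, 42.8 and 46.3 CPM at 2 weeks and 43.2, 31.1 and 33.4 CPM at 65 weeks, with overlapping groups (log2 fold change -0.16 ± 0.13, edgeR adjusted p = 0.302), and without replicate 1 of 65 weeks it was lower by -0.31, with an edgeR adjusted p of 0.0292. Summed B cell markers were 18.02-fold higher, mostly through Ighm, and neutrophil markers 2.45-fold higher beside these genes.

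Oxidative phosphorylation was lower by a small amount over most of its subunits. Of 76 nuclear genes, 55 were lower and 2 higher (72.4% and 2.63%, against 29.5% and 30.2% of all genes), with a median log2 fold change of -0.29 and none at 2-fold. The falls were found in every complex: 24 of 37 genes of complex I, 12 of 14 of complexes II and III, 7 of 10 of complex IV and 12 of 15 of complex V. Atp5mc1, of the rotor ring of ATP synthase, was at 85.3, 90.9 and 86.4 CPM at 2 weeks and 48.4, 44.8 and 45.2 CPM at 65 weeks (log2 fold change -0.79 ± 0.070, edgeR adjusted p = 3.99e-05). Uqcr11 of complex III and Ndufb8 of complex I had log2 fold changes of -0.74 ± 0.089 and -0.71 ± 0.070. Messenger RNAs of the mitochondrial genome fell as well, with 7 of 12 lower and 1 higher. The most abundant, mt-Co1, a catalytic subunit of cytochrome oxidase, was at 25019, 23119 and 23440.2 CPM at 2 weeks and 10175, 11693 and 11902 CPM at 65 weeks (log2 fold change -0.95 ± 0.094, edgeR adjusted p = 7.23e-05), and mt-Cytb and mt-Nd1 fell, with log2 fold changes of -1.04 and -0.99. The gene that rose, mt-Nd6 (log2 fold change 0.57 ± 0.13), is the one transcribed from the opposite strand. The use of strand in counting is not stated, and reads of mt-Nd6 and of the genes opposite it cannot be told apart without it. In the same libraries endothelial markers were 15.5-fold lower, summed B cell markers 18.02-fold higher, mostly through Ighm, and neutrophil markers 2.45-fold higher.

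Lipid genes changed in both directions. Fatty acid uptake had 7 of 11 genes lower (63.6%) and 3 higher (27.3%, close to the 30.2% of all genes). Gpihbp1, the capillary anchor of lipoprotein lipase, was at 103, 127 and 79.7 CPM at 2 weeks and 1.79, 1.55 and 1.16 CPM at 65 weeks (log2 fold change -5.96 ± 0.22, edgeR adjusted p = 1.64e-06). Fabp4, the fatty acid chaperone of capillaries and adipocytes, was at 796, 1039 and 605 CPM at 2 weeks and 119, 140.2 and 118 CPM at 65 weeks (log2 fold change -2.55 ± 0.18, edgeR adjusted p = 1.41e-05), and Lpl, lipoprotein lipase, fell by 2.08 on the log2 scale. Cd36, a fatty acid translocase that macrophages and platelets also express, was at 321, 323 and 302 CPM at 2 weeks and 366, 425 and 370.5 CPM at 65 weeks (log2 fold change 0.43 ± 0.086, edgeR adjusted p = 0.00301). Of 22 oxidation genes 14 were lower and 1 higher, and the one that rose was Cpt1a, which admits fatty acids to mitochondria, at 128, 119 and 113 CPM at 2 weeks and 163, 173 and 183 CPM at 65 weeks (log2 fold change 0.66 ± 0.085, edgeR adjusted p = 2.89e-04). Its sister isoform Cpt1c fell by 1.86, and the matrix partner Cpt2 fell by 0.64 on the log2 scale. Of 9 genes of lipid droplets and lipolysis, 5 were higher and 1 lower. The lipases Lipe and Pnpla2 had log2 fold changes of 1.01 ± 0.14 and 0.80 ± 0.089, and the one that fell was Plin1, the droplet coat of adipocytes (-2.29 ± 0.46). Endothelial and stromal markers fell, and monocyte and macrophage markers rose, in the same libraries.

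Of 23 genes of sterol synthesis and uptake, 12 were higher and 5 lower (52.2% and 21.7%, against 30.2% and 29.5% of all genes), with a median of 0.43. Cyp51, a demethylase of the pathway, was at 12.5, 12.1 and 11.0 CPM at 2 weeks and 24.5, 16.5 and 20.4 CPM at 65 weeks (log2 fold change 0.92 ± 0.15, edgeR adjusted p = 0.00102). A log2 fold change of 0.88 ± 0.078 was found for Srebf2, its transcriptional regulator. The groups of both genes did not overlap, which was a condition of their choice. The 5 that fell included Mvk, mevalonate kinase, at -0.72. Without replicate 1 of 2 weeks 7 were higher and 3 lower. Monocyte and macrophage markers were 1.92-fold higher and stromal markers 5.52-fold lower in the same libraries.

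Serine, one-carbon and amino acid response genes had 12 of 25 lower (48%, against 29.5% of all genes) and 6 higher (24%, under the 30.2% of all genes). Psat1 of serine synthesis fell by 0.91 on the log2 scale, and Phgdh, the first enzyme of that route, was at 44.1, 53.3 and 44.2 CPM at 2 weeks and 48.2, 32.5 and 28.5 CPM at 65 weeks and was not called (log2 fold change -0.24 ± 0.18, edgeR adjusted p = 0.289). Without replicate 1 of 65 weeks Phgdh was called lower, by -0.49 with an edgeR adjusted p of 0.0102. Trib3, a target of Atf4, fell by 1.85 (edgeR adjusted p = 0.0190), a call lost without replicate 1 of 2 weeks or without either replicate 1 or 2 of 65 weeks. Slc7a11, the cystine transporter, and Ddit4, an inhibitor of mTOR signalling, rose, with log2 fold changes of 2.56 ± 0.25 and 1.74 ± 0.18. Osteoblast and stromal markers fell, and neutrophil and macrophage markers rose, in the same libraries.

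Genes of antibody secretion were higher at 65 weeks. All 8 immunoglobulin constant and J chain genes tested were higher, with a median log2 fold change of 7.98. Ighm, the heavy chain of IgM and the first isotype a B cell makes, was at 353, 344 and 402 CPM at 2 weeks and 17744, 6432 and 9042 CPM at 65 weeks (log2 fold change 5.05 ± 0.38, edgeR adjusted p = 1.81e-05). Class-switched chains were low or without counts at 2 weeks. Ighg2b was at 0.0545, 1.40 and 0.679 CPM at 2 weeks and 382, 1985 and 4055 CPM at 65 weeks (log2 fold change 11.70 ± 1.21, edgeR adjusted p = 9.11e-05), and Ighg2c had a log2 fold change of 12.21 ± 0.69. Ighg1 had no count at 2 weeks and was at 424, 409 and 180.3 CPM at 65 weeks, which made it at least 4124-fold higher. The 3 libraries of 65 weeks differed in isotype: Ighg2b was lowest in replicate 1, which with replicate 2 held the most Ighg1. Of 57 immunoglobulin variable genes tested, 56 were higher and 0 lower, against 30.2% and 29.5% of all genes. A gene with few counts at 2 weeks can pass the filter through its 65-week libraries alone. The tallies of constant and variable genes can therefore lean to the higher side through the choice of genes tested.

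The secretory pathway rose in part. Of 53 genes, 29 were higher and 8 lower (54.7% and 15.1%, against 30.2% and 29.5% of all genes), with a median of 0.25. Chaperones (14 of 18 higher, 2 lower) and genes of the degradation of misfolded proteins (8 of 10 higher, 0 lower) moved up, whereas the translocon had 3 of 14 higher and 5 lower. Derl3, a degradation factor of plasma cells, was at 0.381, 0.571 and 0.444 CPM at 2 weeks and 25.4, 15.0 and 15.5 CPM at 65 weeks (log2 fold change 5.45 ± 0.29, edgeR adjusted p = 4.26e-06). Creld2, a chaperone induced by endoplasmic reticulum stress, was at 28.8, 29.6 and 27.2 CPM at 2 weeks and 156, 68.1 and 73.3 CPM at 65 weeks (log2 fold change 1.93 ± 0.30, edgeR adjusted p = 7.64e-04), with replicate 1 of 65 weeks above the other 2. Hspa5, the central chaperone BiP, and Hsp90b1 had log2 fold changes of 0.39 ± 0.10 and 0.86 ± 0.12. Among sensors, Ern1 rose (1.26 ± 0.14), Xbp1, whose messenger RNA Ern1 splices, was at 203, 249 and 191 CPM at 2 weeks and 223, 213 and 203 CPM at 65 weeks and was not called (log2 fold change 0.13 ± 0.100, edgeR adjusted p = 0.291), and Creb3l1, the sensor of osteoblasts, fell (-2.67 ± 0.17). Summed plasma cell markers rose from 119 to 164 CPM to 1038 to 1217 CPM in the same libraries. Jchain, at 991, 1003 and 879 CPM at 65 weeks, made up most of that sum. Of 6 plasma cell markers tested, 5 were higher and 1 lower.

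Interferon-stimulated genes, which type I and II interferons switch on through STAT and IRF factors, were higher by small amounts. Of 45 tested, 29 were higher and 0 lower (64.4% against 30.2% of all genes), with a median of 0.55. Rsad2, the antiviral enzyme viperin, was at 299, 209 and 334 CPM at 2 weeks and 606, 589.7 and 538 CPM at 65 weeks (log2 fold change 1.17 ± 0.17, edgeR adjusted p = 6.56e-04). Zbp1, a sensor of Z-form nucleic acid, and Oasl2, an oligoadenylate synthetase-like gene, had log2 fold changes of 1.63 ± 0.25 and 1.15 ± 0.14. Isg15, the ubiquitin-like modifier, was at 86.7, 62.9 and 106 CPM at 2 weeks and 139, 142 and 132 CPM at 65 weeks (log2 fold change 0.82 ± 0.18, edgeR adjusted p = 0.00504). The factors Irf1 and Irf7 rose with log2 fold changes of 0.68 ± 0.090 and 0.58 ± 0.18. Of 15 interferon-inducible GTPases, 7 were higher and 3 lower (46.7% and 20%, against 30.2% and 29.5% of all genes). Gvin1, Gbp2b and Gbp8 rose, with values of 1.65, 1.62 and 1.46, and Tgtp1, Iigp1 and Ifi47 fell, with values of -0.92, -0.66 and -0.38. Copies within the Gbp and Tgtp families are close in sequence, so that shared reads make single members uncertain.

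The core of the interferon-stimulated response element, GAAANNGAA on either strand, was found in 16 of the 32 listed genes with a RefSeq promoter and in 9.76% of all genes in the table. It was held by 11 of the 21 that were called. The promoter of Rsad2 is given because Rsad2 is one of the 3 members with the largest changes, with the match, at position -119 relative to the start, in capitals (chr12:26456403-26456702, GRCm38.p6, minus strand). Oasl2, which rose to a like degree, held no match in the window (chr5:114896684-114896983, plus strand).
Rsad2 promoter: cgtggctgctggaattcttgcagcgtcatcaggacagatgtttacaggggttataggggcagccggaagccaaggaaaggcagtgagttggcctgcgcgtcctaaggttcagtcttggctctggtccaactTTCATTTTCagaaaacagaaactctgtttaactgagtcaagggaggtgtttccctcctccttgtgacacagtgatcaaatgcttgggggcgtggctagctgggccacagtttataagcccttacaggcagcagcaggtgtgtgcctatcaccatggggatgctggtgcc

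MHC class I molecules show peptides from inside the cell to T cells. Of 23 genes of this route, 19 were higher (82.6%) and 1 lower, with a median of 1.00 and 12 members past 2-fold. B2m, the light chain of all class I molecules, was at 919, 887 and 885 CPM at 2 weeks and 1871, 1982 and 2096 CPM at 65 weeks (log2 fold change 1.28 ± 0.078, edgeR adjusted p = 7.03e-06). H2-K1, a classical heavy chain, was at 387, 394 and 386 CPM at 2 weeks and 1395, 1494 and 1470.1 CPM at 65 weeks (log2 fold change 2.04 ± 0.073, edgeR adjusted p = 1.62e-06). The non-classical H2-Q6 and H2-Q7 had log2 fold changes of 3.81 ± 0.13 and 3.70 ± 0.10, though class I genes are near-identical in sequence and reads may be split among them. The peptide transporter Tap1, the immunoproteasome subunit Psmb8 and the class I transactivator Nlrc5 rose by 1.07, 1.13 and 1.21 on the log2 scale. Cd1d1, which presents lipids, was the one that fell (-0.84 ± 0.12). Within each age the 3 libraries of B2m and of H2-K1 lay close together, and the ages did not overlap, which for H2-K1 was a condition of its choice. B cell, T cell, neutrophil and macrophage markers rose in the libraries in which interferon and class I genes rose.

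**Figure D5:**
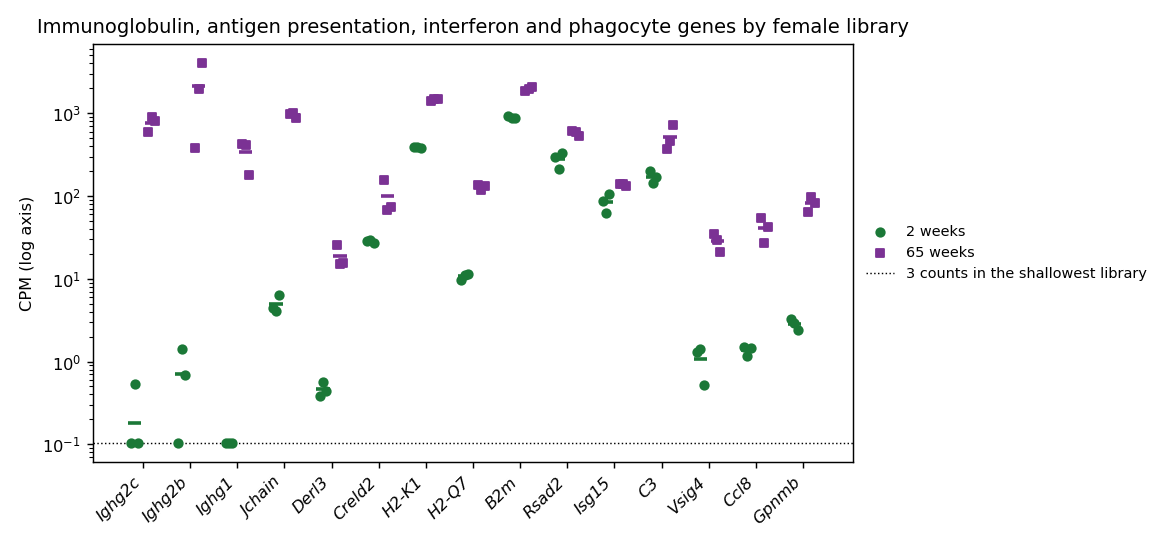
CPM (log axis) of genes of antibody secretion, antigen presentation, interferon response and phagocytes in the 3 libraries of 2 weeks (green circles) and the 3 of 65 weeks (purple squares) of females, with horizontal bars at the group means and values under 3 counts in the shallowest library drawn on the dotted line. All 15 genes are higher at 65 weeks with no overlap, which for most of them was a condition of their choice. Ighg2b has the widest spread, from 382 to 4055 CPM.

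Complement genes had 15 of 28 higher and 6 lower (53.6% and 21.4%, against 30.2% and 29.5% of all genes). C3, the central component, was at 199, 145 and 170.5 CPM at 2 weeks and 375, 459 and 732 CPM at 65 weeks (log2 fold change 1.74 ± 0.25, edgeR adjusted p = 4.97e-04). Of 9 complement receptors and surface regulators, 4 were higher and 2 lower (44.4% and 22.2%). They included Vsig4, a complement receptor of tissue macrophages, at 1.31, 1.43 and 0.522 CPM at 2 weeks and 34.7, 29.5 and 20.9 CPM at 65 weeks (log2 fold change 4.85 ± 0.34, edgeR adjusted p = 1.28e-05), Itgax, with a log2 fold change of 2.52 ± 0.14, and Cr2 of B cells, with 3.93 ± 0.23. The soluble regulator Clu fell (-1.92 ± 0.15). Of 27 chemokine ligands, 16 were higher and 5 lower (59.3% and 18.5%), all by at least 2-fold. With a minimum count of 50 in the filter, 17 chemokine ligands were tested, 12 higher and 5 lower. All 10 CC chemokines called were higher, with Ccl8 at 1.498, 1.17 and 1.46 CPM at 2 weeks and 54.1, 27.4 and 42.1 CPM at 65 weeks (log2 fold change 5.03 ± 0.28, edgeR adjusted p = 4.95e-06). Genes as low as Ccl8 at 2 weeks can pass the filter through their 65-week counts, which can tilt such a tally. Cxcl12, the chemokine that keeps stem cells in marrow and is made by stroma and endothelium, was at 5286, 6837 and 4328 CPM at 2 weeks and 816, 1074 and 1049.8 CPM at 65 weeks (log2 fold change -2.34 ± 0.17, edgeR adjusted p = 1.74e-05). Cx3cl1 of endothelium and Ppbp of platelets fell, with log2 fold changes of -3.14 and -3.09. Summed megakaryocyte markers fell from 1896 to 2216 CPM to 252 to 388 CPM, and monocyte and macrophage markers rose from 4498 to 5384 CPM to 7841 to 10603 CPM.

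Lysosomal genes had 25 of 53 higher and 11 lower (47.2% and 20.8%, against 30.2% and 29.5% of all genes), with a median of 0.35. Gpnmb, a glycoprotein of phagocytes laden with lipid or debris, was at 3.24, 2.91 and 2.43 CPM at 2 weeks and 64.5, 96.6 and 83.1 CPM at 65 weeks (log2 fold change 4.97 ± 0.19, edgeR adjusted p = 1.74e-06). Ctss, the cathepsin of antigen-presenting cells, had a log2 fold change of 1.97 ± 0.10. Ctsk, the collagen-degrading cathepsin of osteoclasts, was at 470.3, 564 and 421 CPM at 2 weeks and 19.2, 25.8 and 16.2 CPM at 65 weeks (log2 fold change -4.43 ± 0.20, edgeR adjusted p = 2.36e-06), and Ctsl fell by 2.36 on the log2 scale. Cathepsin genes thus moved in both directions. Tfeb and Mitf, transcription factors of lysosomal genes, rose with values of 0.99 and 1.21. Osteoclast markers summed to 2093 to 2739 CPM at 2 weeks and 764 to 978 CPM at 65 weeks.

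Circadian genes had 6 of 21 higher and 7 lower (28.6% and 33.3%), shares close to those of all genes. Bhlhe41, a repressor in the clock, was at 2.75, 3.26 and 2.19 CPM at 2 weeks and 32.5, 23.3 and 23.7 CPM at 65 weeks (log2 fold change 3.42 ± 0.19, edgeR adjusted p = 5.08e-06). Per1 and Hlf had log2 fold changes of 1.44 ± 0.16 and 1.299 ± 0.21. Dbp, an output gene whose level swings over the day, was at 10.3, 13.7 and 8.25 CPM at 2 weeks and 5.89, 6.37 and 5.42 CPM at 65 weeks (log2 fold change -0.72 ± 0.19, edgeR adjusted p = 0.0120), Per3 and Nr1d1 fell, with log2 fold changes of -1.73 and -1.31, and Bmal1, Clock and Per2 were not called, at -0.11, -0.17 and -0.05. Endothelial and stromal markers fell and leukocyte markers rose in the same libraries.

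Of 458 long non-coding RNAs tested, 104 were higher (22.7%, under the 30.2% of all genes) and 77 lower, with a median of 0.07. Both mitochondrial ribosomal RNAs rose while the messenger RNAs of the same genome fell. The larger, mt-Rnr2, was at 625, 597 and 652 CPM at 2 weeks and 2497, 2499.9 and 2251 CPM at 65 weeks (log2 fold change 2.09 ± 0.089, edgeR adjusted p = 1.95e-06), and mt-Rnr1 had a log2 fold change of 1.302 ± 0.087. Histone cluster genes, whose messages end in a stem-loop in place of a poly(A) tail, were higher in 32 of 43 cases and lower in 0, with a median of 1.84. All 32 were among the 38 that averaged under 10 CPM at 2 weeks, and the 5 more abundant ones, such as H1f2 (-0.14 ± 0.091) and H2bc4 (0.08 ± 0.093), were not called. Rmrp and Rpph1, the RNA parts of RNase MRP and RNase P, had log2 fold changes of 5.50 ± 0.44 and 4.21 ± 0.29, and the long non-coding nuclear RNA Malat1 was at 50.5, 48.6 and 62.9 CPM at 2 weeks and 377, 390.4 and 384 CPM at 65 weeks (log2 fold change 2.96 ± 0.13, edgeR adjusted p = 1.95e-06). Of 210 processed pseudogenes tested, 133 were higher and 9 lower (63.3% higher), with a median of 1.21, and of the 28 named after a ribosomal protein 24 were higher and 1 lower, while their parent genes changed little. Reads of such copies cannot be told from those of their parents with certainty. These classes were picked after their values were seen. The label names polyadenylated RNA and the kit is one for total RNA, and the part of library chemistry in these values was not tested.

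The change in females was set beside that in males for the 135 named genes. The interaction of age and sex was called by edgeR for 0 of them and for 1 of 15747 genes tested in all (0.00635%). DESeq2 called 10 of the 135 and 362 genes in all. In edgeR 32 of the 135 had an unadjusted p under 0.05, a count for which no share of all genes was computed. Many of the 135 were chosen for a large change in females, so that these counts do not stand for all genes. The smallest adjusted p of a named gene in edgeR was 0.128. Male replicate 3 of 65 weeks weighed on the count of edgeR, since without it 22 named genes and 750 genes in all were called. Igf2 had a log2 fold change of -2.69 ± 0.49 in males against -5.37 ± 0.26 in females (edgeR adjusted p = 0.141 for the difference), and Pecam1 one of -3.24 ± 0.25 against -1.77 ± 0.19 (edgeR adjusted p = 0.138). Cdkn1c had a log2 fold change of -0.92 ± 0.38 in males and -3.19 ± 0.31 in females (edgeR adjusted p = 0.141). B2m rose by 0.61 ± 0.15 in males and 1.28 ± 0.078 in females (edgeR adjusted p = 0.164). None of these 4 differences passed the threshold in edgeR with all libraries. DESeq2 called all 4, as did edgeR without male replicate 3 of 65 weeks, so that for these genes the call depended on the tool and on 1 library. H19, Cxcl12 and Col1a1 had male log2 fold changes of -5.46 ± 0.47, -2.33 ± 0.20 and -6.41 ± 0.20, with differences from females of -0.02 ± 0.58, -0.02 ± 0.27 and -0.31 ± 0.29 (female minus male, ± SE).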

How the data were processed

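Counts of reads per gene were deposited for 12 libraries, of which the 6 of females at 2 and 65 weeks were used here, and the 6 of males for the interaction alone. The authors sequenced the libraries on a HiSeq 2500 (100-base paired reads) from samples chosen by RNA quality. The submitters' processing notes name TopHat2, HTSeq and mm9, whereas the study's methods name STAR, featureCounts and GRCm39, so that the genome build behind the counts is unsettled and no gene coordinates are given. The label names polyadenylated RNA and the methods a kit for total RNA.

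Total counts were 29049031 to 38289171 per library, so that 3 counts, the floor used for genes with no count, were about 0.1 CPM. This floor covers counting error only. Genes were kept by filterByExpr (minimum count 10), scaled by TMM and tested with the quasi-likelihood test of edgeR 4.0.16 in R 4.3.3 on the 6 libraries, with Benjamini-Hochberg adjustment over all genes tested. The interaction of age and sex was fitted on all 12 libraries, and its p-values were adjusted over all genes tested. Errors of log2 fold changes are SE. On 15120 genes of simulated counts edgeR recovered 16 of 50 genes changed 1.5-fold, 39 of 50 changed 2-fold, 37 of 50 changed 3-fold and 43 of 50 changed 4-fold. Of its calls 8.16% were false, and of those of DESeq2 on the same simulated counts 18.5%. Only 50 genes per fold size were changed, whereas 59.7% of genes were called in the data, so that these rates may not carry over. Replicate libraries of a group differed by more than sampling noise (chi-square per degree of freedom 24.96 to 73.5).

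Gene lists and examples were chosen with earlier results of these data known. The text names the 12 largest rises and falls among abundant protein-coding genes (average log2 CPM of at least 5, called, no overlap), up to 3 of the largest changes per list (average log2 CPM of at least 3), and a set of 34 genes chosen for their role. Some genes that this rule names are not reported here. Other genes named within a list were chosen after their values were seen. Promoters are RefSeq sequences of GRCm38.p6. Alternatives were DESeq2 1.42.0, other scalings, filters and thresholds, thinned counts, a robust fit, all 12 libraries, a replicate block, and each library left out in turn.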

Additional observations from a re-analysis of the deposited data

Results flagged for a closer look

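The change of Cd36 differed between the sexes before adjustment over genes. The log2 fold change of 65 over 2 weeks was 0.43 ± 0.086 in females and -0.19 ± 0.16 in males, a difference (female minus male) of 0.624 with an unadjusted p of 0.00558 and an adjusted p of 0.218 by edgeR. Every female library of 65 weeks was above every one of 2 weeks, and every male library of 65 weeks was below every one of 2 weeks. The difference did not pass the threshold after adjustment.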

How the results depend on the processing

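Under DESeq2, 4 other scalings, 2 other filters, thinning, a robust fit, all 12 libraries in 1 model and an adjusted p under 0.01, counts of called genes stayed within 1.5 times, at 6785 to 9470, and no gene called in both fits changed sign. Asking for a 2-fold change as well left 4345 genes called, 1836 higher and 2509 lower, and of the 762 listed genes called 413, 105 higher and 308 lower, by construction. Leaving out 1 library at a time gave 7434 to 8757 called genes (3453 to 4353 higher, 3981 to 4659 lower) and 658 to 762 listed genes called (213 to 262 higher, 440 to 504 lower). Small shifts depended on scaling. Ribosomal protein genes went from 21 higher and 8 lower to 8 and 26 under library totals, replication genes lower from 8 to 20, ribosome biogenesis genes lower from 15 to 23 and fatty acid genes higher from 11 to 7. Hox genes lower went from 20 of 26 to 13 of 14 tested with a minimum count of 50, Wnt genes higher from 7 to 4 without replicate 1 of 2 weeks, and secretory genes lower from 8 to 4 without replicate 2 of 65 weeks. Leaving immunoglobulin and haemoglobin genes out left 1 gene of the immunoglobulin list, by construction.

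The direction of Xbp1 turned under library totals (log2 fold change -0.0074) and without replicate 3 of 2 weeks (-0.0094 to 0.19 over libraries left out), and that of Pcna without replicate 2 of 2 weeks (-0.017 to 0.20). None of these was called. The count of named genes with an interaction of age and sex was 10 under DESeq2 and 0 to 22 with 1 library left out (22 without male replicate 3 of 65 weeks, 1 without female replicate 1 or male replicate 2 of that age), and the cause was not tested. Over all genes 362 were called under DESeq2 and 750 without male replicate 3 of 65 weeks.

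Replicate numbers did not pair the libraries, since correlations of same-numbered deviations were -0.03 to 0.03. With the replicate block 8269 genes were called, 8177 of them also without it, and the split of ribosomal protein genes was 13 higher and 1 lower. Under the block Mki67 was called (log2 fold change 0.75, edgeR adjusted p = 0.0275) and the call of Uhrf1 was lost (edgeR adjusted p = 0.0502). Precision was limited by 3 libraries an age and, for genes of a few counts, by depth.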
